A study of Homo sapiens with 6 samples.

Results

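Molecular chaperones that fold newly made and stressed proteins were followed as 85 protein-coding genes of the 19847 protein-coding genes listed in the RIP table. They were chosen by symbol alone. The choice took TCP1 and CCT2 to CCT8 (with the testis-type CCT6B and the CCT8L2 copy), the HSPA, HSPB, HSPD, HSPE and HSPH genes, the HSP90 genes, and the DNAJA, DNAJB and DNAJC genes. By class these are 15 HSP70 and HSP110 genes, 3 HSP90 genes, the 2 genes of mitochondrial HSP60 and HSP10, 8 HSPB genes, 4 DNAJA, 12 DNAJB and 28 DNAJC genes, 10 CCT genes and 3 read-through genes, whose symbols join neighbouring genes with a hyphen.

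HSP70 proteins bind exposed hydrophobic stretches in an ATP-driven cycle. DNAJ proteins (HSP40) deliver substrates to them and start ATP hydrolysis, and nucleotide exchange factors such as HSP110 reset the cycle. HSP90 completes the folding of kinases and receptors, HSP60 with its lid HSP10 folds proteins in the mitochondrial matrix, and the CCT ring folds actin and tubulin in the cytosol. Small heat shock proteins hold unfolded proteins without ATP. Many of these genes are induced by heat shock factor or by stress in the endoplasmic reticulum (ER), and tumour cells commonly express them strongly.

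SW480 and DLD-1 are epithelial cell lines grown from human colorectal tumours. They were wild type and untreated, and 6 groups of 1 library each were sequenced: Input (total RNA), RIP (RNA precipitated with an antibody to NAT10, the enzyme that acetylates cytidine) and acRIP (fragmented RNA precipitated with an antibody to N4-acetylcytidine, ac4C) in each line. Without replicates, a difference sets 1 library beside another and has no test. Levels are FPKM, fragments per kilobase of transcript, set relative to the total of the library, which allows genes of different length to be compared. A RIP/Input ratio is log2((RIP FPKM + 1)/(Input FPKM + 1)), which understates the change of low genes, and ± is the standard error from counting reads only. PCR copies are not independent molecules, so this error does not cover the preparation of the libraries.

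The libraries did not pair by label. Over the 16196 protein-coding genes above 0 in the RIP table, Pearson's r of log2(FPKM + 1) was 0.944 between the RIP library labelled SW480 and the Input labelled DLD-1, against 0.871 with its own Input, and 0.951 between the RIP library labelled DLD-1 and the Input labelled SW480, against 0.856 with its own. The 77 chaperone genes above 0 in any of these libraries gave the same order, with r of 0.975 against 0.946 and 0.979 against 0.934. These correlations are across genes of the same libraries and carry no test. Labels were kept as given, and each ratio is set beside the one over the other label's Input. The Inputs of the acRIP table, whose unit is not named and was read as FPKM, resembled the Inputs of the same label (r of 0.963 and 0.957), so the Input labels hold between the tables. Whether the RIP or the Input labels are crossed was not tested. The deepest was the RIP library labelled SW480, and the other 3 libraries had 0.456 to 0.850 of its depth. Of 8 epithelial markers 6 were above 1 FPKM in every library (KRT8, KRT18, KRT19, EPCAM, CDH1 and CDX2), VIL1 was at most 1.24 and CDX1 was at 0 in 3 libraries. Markers of leukocytes, endothelium, fibroblasts and hepatocytes summed to at most 1.16 FPKM per list and library.

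The chaperone genes made up 1.27% to 1.51% of the protein-coding FPKM sum in the 4 libraries of the RIP table. Of the 85 genes, 67 were above 0 in all 4 libraries. The 8 listed at 0 in each were CCT8L2, DNAJB8, DNAJC5B, HSPB3, HSPB7 and the read-through genes DNAJC25-GNG10, HSPB2-C11orf52 and HSPE1-MOB4. Ratios were counted for the 61 genes with an Input of at least 1 FPKM in both lines, and the background throughout is the 10350 protein-coding genes that met the same minimum. The other 16, above 0 in some library, were CCT6B, DNAJA4, DNAJB5, DNAJB7, DNAJB13, DNAJC5G, DNAJC6, DNAJC12, DNAJC28, HSPA1L, HSPA6, HSPA12B, HSPB2, HSPB6, HSPB8 and HSPB9. The minimum removed genes that 1 line lacks. Of these, DNAJC12 was at 0 in the Input labelled SW480 and 1.73 FPKM in the Input labelled DLD-1, and DNAJC28 was 0.979 and 3.01.

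**Figure D1:**
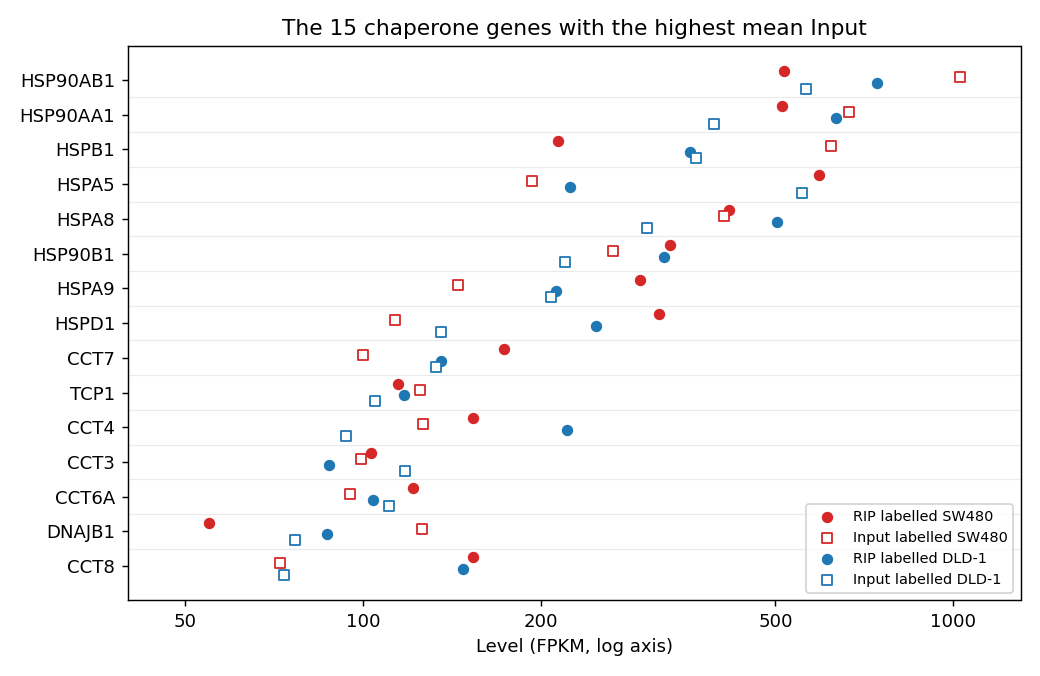
Levels (FPKM, log axis) of the 15 chaperone genes with the highest mean Input in the 4 libraries of the RIP table, with filled circles for RIP, open squares for Input and colours for the label. In HSPA5 the RIP library labelled SW480 (593) lies beside the Input labelled DLD-1 (554), and the RIP library labelled DLD-1 (224) beside the Input labelled SW480 (193).

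HSP90AB1 and HSP90AA1 had the highest mean Input, as the plot of the 15 most abundant genes shows, whereas in the RIP library labelled SW480 HSPA5 lay above both. HSP90AB1, the constitutive cytosolic HSP90, gave RIP 516 and Input 1028 FPKM under the SW480 label, and RIP 743 and Input 564 FPKM under the DLD-1 label. It ranked 20 among protein-coding genes in the Input labelled SW480. HSP90AA1, its stress-inducible partner, gave RIP 512 and Input 666 FPKM under the SW480 label, and RIP 632 and Input 394 FPKM under the DLD-1 label. Both were higher in the Input labelled SW480 than in the Input labelled DLD-1, by 0.87 ± 0.012 and 0.76 ± 0.013 on the log2 scale, and the Inputs of the acRIP table gave 0.96 and 0.86. Over the Input of its label HSP90AB1 had a ratio of -0.99 ± 0.010 (SW480) and 0.40 ± 0.012 (DLD-1), and over the other label's Input -0.13 ± 0.012 and -0.47 ± 0.0097. HSP90B1, the HSP90 of the ER, gave RIP 331 and Input 265 FPKM under the SW480 label, and RIP 324 and Input 220.3 FPKM under the DLD-1 label, and was the HSP90 gene with both RIP libraries above both Inputs.

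Among HSP70 genes only the ER member HSPA5 (BiP, the main sensor-bound chaperone of the ER) was past 2-fold in opposite directions as labelled. It gave RIP 593 and Input 193 FPKM under the SW480 label, and RIP 224 and Input 554 FPKM under the DLD-1 label, so 1 RIP library and 1 Input of opposite labels were high and the other two were low. Its ratio was 1.61 ± 0.015 as labelled in SW480 and -1.30 ± 0.013 in DLD-1, against 0.10 ± 0.010 and 0.21 ± 0.017 over the other label's Input. The Inputs of the acRIP table repeated the line difference, with 185 in SW480 and 514 in DLD-1. HSPA8, the constitutive cytosolic HSP70, gave RIP 417 and Input 409 FPKM under the SW480 label, and RIP 502 and Input 302 FPKM under the DLD-1 label. HSPA9, the mitochondrial HSP70, gave RIP 295 and Input 145 FPKM under the SW480 label, and RIP 212 and Input 209 FPKM under the DLD-1 label. In HSPA8 and HSPA9 both RIP libraries lay above both Inputs, but by as little as 0.03 and 0.02 on the log2 scale, and neither order held once ratios were centred on the median of all genes.

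HSPA13, another ER HSP70, gave RIP 50.3 and Input 17.1 FPKM under the SW480 label, and RIP 35.2 and Input 30.9 FPKM under the DLD-1 label, again with both RIP libraries above both Inputs. HSPA4, an HSP110-type exchange factor, had ratios of 1.07 ± 0.030 and -0.19 ± 0.030 as labelled. HSPH1 (HSP110) had 0.21 ± 0.029 and 0.62 ± 0.034. The inducible genes HSPA1A and HSPA1B are nearly identical, so reads can be assigned to either and their separate values are uncertain. HSPA1A gave RIP 5.36 and Input 3.47 FPKM under the SW480 label, and RIP 0.432 and Input 4.15 FPKM under the DLD-1 label, whereas HSPA1B gave RIP 8.72 and Input 15.3 FPKM under the SW480 label, and RIP 18.8 and Input 8.37 FPKM under the DLD-1 label. HSPA1A was low in the library where HSPA1B was highest. HSPA12A, a distant relative, was 3.89 FPKM in the Input labelled SW480 and 11.3 in the DLD-1 one, with RIP values of 8.15 and 2.45. This is the split of libraries seen in HSPA5, with ratios of 0.90 and -1.83 as labelled. HSPA2 had 0.74 and -1.35, and HSPA1A, HSPA4 and HSPA4L had signs in the same order. In HSPA1B and HSPA14 the order of signs was the reverse. HSPA6, a strictly heat-induced gene, did not exceed 0.419 FPKM in any of the 4 libraries.

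Promoter sequences (RefSeq, GRCh38.p14) were matched by symbol for 75 of the 85 genes, in 96 windows, since a gene can have several starts. The 250 bases before each start were searched on both strands for a heat shock element (GAANNTTCNNGAA, N any base), the site of heat shock factor, and for the ER stress element (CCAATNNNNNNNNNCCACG). The heat shock element was present in 6 of the 96 windows, those of HSPA6, HSPA8, HSP90AA1, HSP90AB1, HSPD1 and DNAJB6, and in 155 of all 35116 windows (0.441%). The ER stress element was present in 2, those of HSPA5 and HSP90B1, and in 26 of all windows (0.0740%). A match is a description of the letters and not a shown site. A window without a match does not show that the gene lacks such an element, since only these exact letters within 250 bases were searched. HSPA5 and HSPA8 are printed because their levels head the HSP70 class, HSP90B1 because it holds the ER element on both strands, and short stretches of HSP90AB1, HSP90AA1 and HSPD1 because these windows begin inside another transcript of the gene. Capitals mark the element, each sequence runs 5′ to 3′ on the strand of its gene, and the 250-base sequences end just before the start.
HSPA5 (chr9:125241344-125241593, minus strand): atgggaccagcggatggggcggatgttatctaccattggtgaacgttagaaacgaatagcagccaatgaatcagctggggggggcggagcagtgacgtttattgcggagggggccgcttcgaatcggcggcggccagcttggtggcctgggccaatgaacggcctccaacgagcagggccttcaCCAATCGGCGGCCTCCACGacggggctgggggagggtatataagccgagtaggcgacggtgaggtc
HSP90B1 (chr12:103930160-103930409, plus strand): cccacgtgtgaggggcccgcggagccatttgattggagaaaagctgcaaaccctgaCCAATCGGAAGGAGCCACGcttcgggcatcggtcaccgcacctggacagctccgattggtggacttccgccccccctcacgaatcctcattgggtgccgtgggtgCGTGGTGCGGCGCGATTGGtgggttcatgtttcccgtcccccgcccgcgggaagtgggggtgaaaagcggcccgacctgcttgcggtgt
HSPA8 (chr11:123062137-123062386, minus strand): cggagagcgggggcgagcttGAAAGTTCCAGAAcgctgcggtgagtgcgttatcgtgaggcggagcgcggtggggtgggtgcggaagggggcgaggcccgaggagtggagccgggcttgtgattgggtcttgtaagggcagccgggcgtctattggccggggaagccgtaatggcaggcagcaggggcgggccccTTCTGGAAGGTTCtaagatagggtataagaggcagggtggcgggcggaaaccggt
HSP90AB1, first element (chr6:44247771-44247800, plus strand): gagcaggTTCTGGAAGATTCatgggctcct
HSP90AB1, second element (chr6:44247824-44247853, plus strand): gagattgTTCTGGAAGCTTCtggattctgg
HSP90AA1 (chr14:102087110-102087139, minus strand): agggttcTTCCGGAAGGTTCgggaggcttc
HSPD1 (chr2:197500061-197500090, minus strand): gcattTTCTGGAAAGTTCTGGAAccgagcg
In HSPA5 the ER stress element begins 66 bases before the start. In HSP90B1 elements begin 194 and 89 bases before it, the second on the opposite strand. In HSPA8 heat shock elements begin at 230 and 55 bases, and in HSPD1 the elements of both strands overlap, beginning at 245 and 240 bases.

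Both genes with the ER stress element were abundant in every library, but their line differences in Input were unlike, -1.51 ± 0.016 for HSPA5 and 0.26 ± 0.020 for HSP90B1 (log2, SW480 over DLD-1). The list of 9 ER genes is not complete and leaves out J proteins of the ER membrane, such as DNAJB12 and DNAJB14. Of the 9, 7 were lower and 2 higher in the Input labelled SW480. Their median difference was -0.21, against -0.16 over the 61 chaperone genes and -0.03 over all 10350 genes. The difference was largest in DNAJB9 (ERdj4, an ER J protein), which gave RIP 21.9 and Input 2.39 FPKM under the SW480 label, and RIP 8.47 and Input 13.5 FPKM under the DLD-1 label. Its acRIP-table Inputs were 3.07 and 11.7. DNAJC3 (P58IPK) was 13.7 and 25.8 FPKM in the Inputs labelled SW480 and DLD-1. DNAJB11 (ERdj3) was 6.76 and 7.66.

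The mitochondrial HSP60 gene HSPD1 was higher in both RIP libraries than in both Inputs by a wide margin. It gave RIP 317 and Input 114 FPKM under the SW480 label, and RIP 248 and Input 136 FPKM under the DLD-1 label. Its ratio was 1.47 ± 0.025 (SW480) and 0.87 ± 0.024 (DLD-1) as labelled, and 1.22 ± 0.024 and 1.12 ± 0.025 over the other label's Input. HSPE1, the lid HSP10, gave RIP 11.1 and Input 4.39 FPKM under the SW480 label, and RIP 14.5 and Input 8.27 FPKM under the DLD-1 label. Its reads can be shared with the read-through gene HSPE1-MOB4, listed at 0, and its level is uncertain. The ratio of HSPE1 was above 0 in all 4 pairings, from 0.38 ± 0.16 to 1.52 ± 0.20. Over the 9 mitochondrial genes on the list 7 had a ratio above 0 as labelled in SW480 and 4 in DLD-1, where 6001 and 5470 of the 10350 genes had one. With the other label's Input the counts were 6 and 7 of 9, where 5896 and 5703 of the 10350 genes had a ratio above 0. DNAJC19, a J protein of the inner membrane import motor, gave RIP 18.8 and Input 5.12 FPKM under the SW480 label, and RIP 13.0 and Input 7.04 FPKM under the DLD-1 label, and all 4 of its ratios lay between 0.80 ± 0.13 and 1.70 ± 0.14. DNAJC4 and DNAJC11 went the other way, with both RIP libraries below both Inputs.

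The cytosolic CCT ring holds its different subunits in equal number. Inputs of the 8 subunit genes ran from 51.4 (CCT2) to 127 FPKM (CCT4) under the SW480 label and from 44.3 (CCT2) to 133 (CCT7) under the DLD-1 label. The ratios were unlike between subunits. CCT8 gave RIP 153 and Input 72.5 FPKM under the SW480 label, and RIP 148 and Input 73.6 FPKM under the DLD-1 label, so that its ratio was 1.07 ± 0.049 and 0.996 ± 0.051 as labelled, and 1.05 ± 0.050 and 1.02 ± 0.050 over the other Input. Its Inputs were nearly equal, so its ratio hardly depended on the choice of Input.

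CCT4 gave RIP 154 and Input 127 FPKM under the SW480 label, and RIP 222 and Input 93.5 FPKM under the DLD-1 label, with ratios of 0.28 ± 0.025 and 1.23 ± 0.028. CCT2 had 0.45 ± 0.041 and 1.15 ± 0.044, CCT5 0.67 ± 0.029 and 0.77 ± 0.030, and CCT7 0.79 ± 0.030 and 0.03 ± 0.029. In these 5 subunits (CCT2, CCT4, CCT5, CCT7 and CCT8) both RIP libraries lay above both Inputs, which in CCT7 did not hold after centring on the median of all genes. TCP1 (CCT1) gave RIP 115 and Input 125 FPKM under the SW480 label, and RIP 117 and Input 105 FPKM under the DLD-1 label, and CCT6A had ratios of 0.35 ± 0.028 and -0.09 ± 0.028. CCT3 gave RIP 103 and Input 99.2 FPKM under the SW480 label, and RIP 87.6 and Input 118 FPKM under the DLD-1 label, with ratios of 0.06 ± 0.031 and -0.42 ± 0.032. For TCP1, CCT3 and CCT6A the RIP and Input levels overlapped. CCT6B, the testis form, stayed under 1 FPKM in every library.

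**Figure D2:**
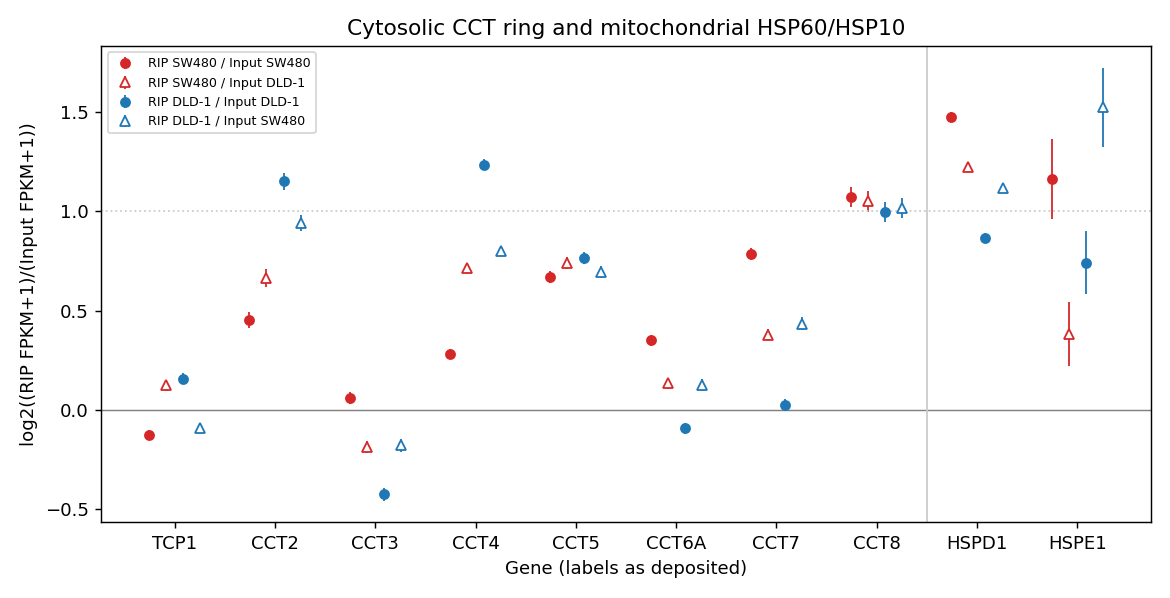
RIP/Input ratios (log2, pseudocount 1 FPKM) of the 8 ring subunit genes and of HSPD1 and HSPE1, with circles over the Input of the same label and triangles over the other label's Input; bars are the counting standard error. CCT8 lies near 1 in all 4 pairings (0.996 to 1.07), whereas CCT3 runs from -0.42 to 0.06.

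Among the DNAJ genes, the cytosolic DNAJB1, the main stress-inducible HSP40, gave RIP 54.9 and Input 126 FPKM under the SW480 label, and RIP 87.1 and Input 76.7 FPKM under the DLD-1 label, with the Input labelled SW480 highest. Its ratio was -1.18 ± 0.033 and 0.18 ± 0.036 as labelled and -0.48 ± 0.038 and -0.53 ± 0.030 over the other Input. DNAJA1 gave RIP 45.3 and Input 35.9 FPKM under the SW480 label, and RIP 43.4 and Input 25.9 FPKM under the DLD-1 label, with both RIP libraries above both Inputs, whereas DNAJA2 gave RIP 43.0 and Input 61.5 FPKM under the SW480 label, and RIP 50.01 and Input 57.4 FPKM under the DLD-1 label, with both below. Of the DNAJ genes that met the Input minimum, DNAJA2, DNAJB12, DNAJC4, DNAJC5, DNAJC11 and DNAJC17 had both RIP libraries below both Inputs. The ratios of DNAJC5, the J protein of secretory vesicles, were -0.63 ± 0.052 and -0.25 ± 0.055, those of DNAJB12, a J protein of the ER membrane, -0.49 ± 0.056 and -0.14 ± 0.058, and those of DNAJC17 -0.48 ± 0.12 and -0.06 ± 0.13. DNAJC4 had -0.77 ± 0.12 and -0.18 ± 0.12, and DNAJC11 -0.37 ± 0.086 and -0.34 ± 0.097. DNAJC16 was among those higher in both RIP libraries, with ratios of 0.66 ± 0.080 and 0.79 ± 0.076.

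Several DNAJ genes separated the libraries into pairs. DNAJA4, a cytosolic J protein, gave RIP 9.09 and Input 0.190 FPKM under the SW480 label, and RIP 0.0122 and Input 10.4 FPKM under the DLD-1 label. It was present in the RIP library labelled SW480 and the Input labelled DLD-1 and nearly absent from the other two, where 9 reads (Input labelled SW480) and 1 read (RIP labelled DLD-1) were solved. DNAJC6 (auxilin, which uncoats clathrin vesicles) gave RIP 4.40 and Input 0.0925 FPKM under the SW480 label, and RIP 0.262 and Input 4.42 FPKM under the DLD-1 label. DNAJB4 gave RIP 14.1 and Input 4.67 FPKM under the SW480 label, and RIP 5.39 and Input 13.6 FPKM under the DLD-1 label, and DNAJC18 gave RIP 6.99 and Input 2.06 FPKM under the SW480 label, and RIP 2.23 and Input 5.73 FPKM under the DLD-1 label. DNAJB5 was 0.916 FPKM in the Input labelled SW480 and 5.54 in the Input labelled DLD-1. DNAJC5G was listed at 0 in the Input labelled SW480 and reached 3.43 in the Input labelled DLD-1. In the Inputs of the acRIP table DNAJA4 was at 0 in SW480 and 5.08 in DLD-1, and DNAJC6 was 0.0392 and 2.77.

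Of the HSPB genes, 2 of 8 met the Input minimum. HSPB1 (HSP27) gave RIP 214 and Input 621 FPKM under the SW480 label, and RIP 358 and Input 366 FPKM under the DLD-1 label. Its ratio was -1.53 ± 0.020 and -0.03 ± 0.021 as labelled, and -0.77 ± 0.023 and -0.79 ± 0.018 over the other label's Input, so it lay below Input in all 4 pairings. HSPB11, named for likeness to this family and known as IFT25 of the intraflagellar transport complex, gave RIP 61.1 and Input 87.6 FPKM under the SW480 label, and RIP 149 and Input 33.0 FPKM under the DLD-1 label. Its Inputs were also unequal in the acRIP table, at 23.4 and 9.31. HSPB8, which works with BAG3 in clearing aggregates, gave 3.15 FPKM in RIP under the SW480 label and 4.72 in the Input labelled DLD-1, and was listed at 0 in the other two.

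Counted at 2-fold, 18 of the 61 genes were above Input as labelled in SW480, where 17.4% of all genes were, and 2 (DNAJB1 and HSPB1) were below, against 9.17%. In DLD-1 6 were above (CCT2, CCT4, DNAJB14, DNAJC9, HSPA1B and HSPB11), against 16.7%, and 7 below (DNAJB2, DNAJB4, DNAJC18, HSPA2, HSPA5, HSPA12A and HSPA1A), against 12.8%. No gene was 2-fold above in both lines, where 3.86% of all genes were, and none was below in both, where 1.26% were. With 1 library per group no test gives an unadjusted p for these counts. Opposite 2-fold calls were found in DNAJB4, DNAJC18 and HSPA5, 3 of 61 against 6.5% of all genes. Median ratios were 0.45 and 0.02, against 0.18 and 0.07 over all 10350 genes. Relative to that shift, 9 genes were 2-fold above and 3 below in SW480, and the DLD-1 counts were the same. The shares of all genes given above are without this shift and cannot be set beside these counts.

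Over the Input of the other label, 3 genes were 2-fold above in the RIP library labelled SW480 (CCT8, DNAJC19 and HSPD1), against 10.1% of all genes, and none below, against 3.93%. In the RIP library labelled DLD-1 8 were above (CCT8, DNAJB9, DNAJC9, DNAJC19, DNAJC24, HSPA13, HSPD1 and HSPE1), against 10%, and HSPA1A was below, against 4.51%. CCT8, DNAJC19 and HSPD1 were above in both, 3 of 61 where 6.15% of all genes were. The median ratios were 0.30 and 0.27, against 0.11 and 0.09. The 2 ratios of a gene had opposite signs in 31 of 61 genes as labelled (47.6% over all genes) and in 7 of 61 over the other label (19.0%). The 4 libraries are the same in both ways of pairing, so for a gene the ratios of 1 pairing add up to those of the other.

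**Figure D3:**
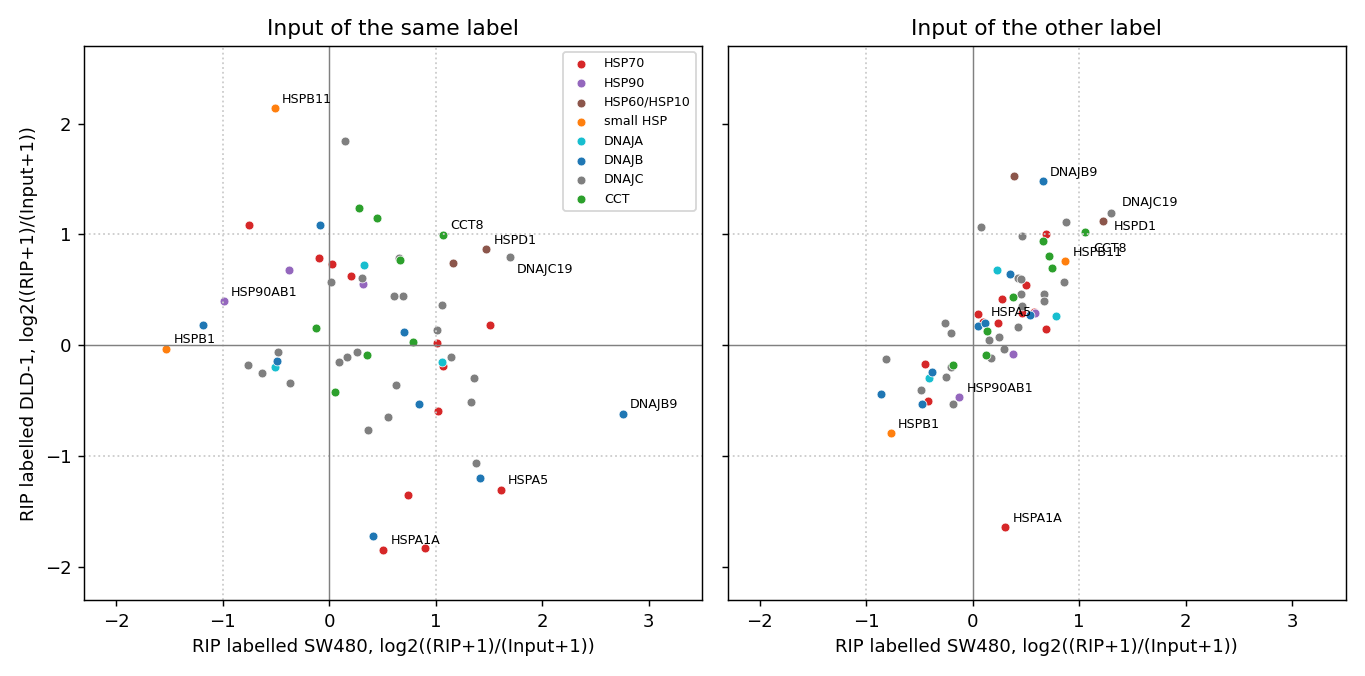
RIP/Input ratios (log2, pseudocount 1 FPKM) of the 61 chaperone genes with an Input of at least 1 FPKM in both lines, for the RIP library labelled SW480 (x axis) and that labelled DLD-1 (y axis), over the Input of the same label on the left and of the other label on the right; dotted lines mark 2-fold. Opposite signs are found in 31 genes on the left and 7 on the right, and HSPA5 moves from 1.61 and -1.30 to 0.10 and 0.21.

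A statement that needs no pairing is whether both RIP libraries lay above both Inputs. This held for 23 of the 61 genes, against 30% of all genes, and both lay below both Inputs for 7, against 19.4%. With each ratio centred on the median of all genes the counts were 17 against 24.9% and 8 against 24.3%. By class, without centring, the first group held 4 of 12 HSP70 genes, 1 of 3 HSP90 genes, both HSP60 and HSP10 genes, 5 of 8 CCT genes, 1 of 3 DNAJA, 1 of 8 DNAJB and 9 of 23 DNAJC genes. By place it held 6 of the 9 ER genes and 4 of the 9 mitochondrial genes. With the acRIP-table Inputs, brought to the same median, the order did not hold in every gene of the 2 groups. From the first group, the RIP library labelled SW480 gave -0.26 in CCT4 and -0.10 in DNAJA1 over the Input of its label. From the second, the RIP library labelled DLD-1 gave 0.51 in DNAJC4 and 0.21 in DNAJB12 over the Input of its label.

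Between the Inputs, 1 gene was 2-fold higher under the SW480 label (HSPB11), against 6.66% of all genes, and 7 were lower (DNAJB2, DNAJB4, DNAJB9, DNAJC18, HSPA2, HSPA5 and HSPA12A), against 8.95%. The sign of the difference was the same in the acRIP-table Inputs for 56 of the 61 genes. HSP90AB1, HSPB1 and HSP90AA1 were among the genes higher in SW480, and HSPB1 gave 0.76 ± 0.021 and 0.77 in the RIP and acRIP tables. Between the RIP libraries the order was turned. There 6 genes were 2-fold higher under the SW480 label (DNAJB4, DNAJB9, DNAJC18, HSPA5, HSPA12A and HSPA1A), against 7.99%, and 2 lower (HSPA1B and HSPB11), against 5.65%. HSPA5 differed by -1.51 ± 0.016 between the Inputs and by 1.40 ± 0.011 between the RIP libraries.

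**Figure D4:**
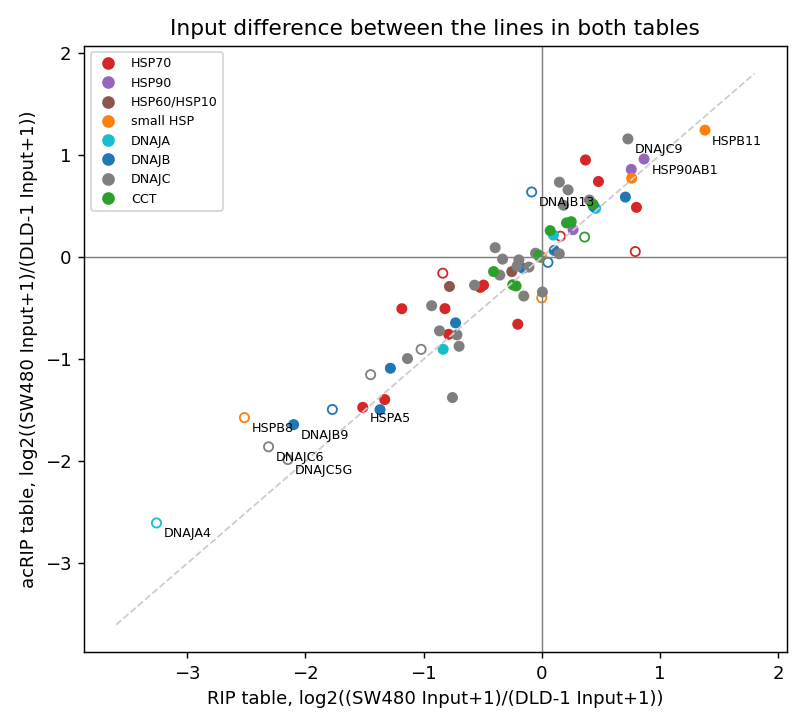
Input level difference between the lines (log2, SW480 over DLD-1, pseudocount 1 FPKM) in the RIP table (x axis) and the acRIP table (y axis) for the 77 chaperone genes above 0 in any library of the RIP table, filled where the Input was at least 1 FPKM in both lines; the dashed line marks equal values. DNAJA4 (-3.26 and -2.60) and HSPB11 (1.38 and 1.24) lie at the ends.

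ac4C peaks were called by the authors in each acRIP library against its Input, as regions on spliced transcripts with a fold enrichment. A peak was counted for its listed host gene. There were 60 peaks on 39 of the 85 genes in SW480 and 97 on 45 in DLD-1. Of the 61 genes that met the Input minimum, 37 had a peak in SW480, where 51.1% of all genes did, 42 in DLD-1, where 56.8% did, and 34 in both, where 40.3% did. Peaks were more frequent at higher levels. At an Input of at least 50 FPKM, 18 of 19 chaperone genes in SW480 and 18 of 18 in DLD-1 had one, against 76.8% and 80.0% of all genes at that level, and at 1 to 5 FPKM 4 of 16 and 2 of 8 did, against 30.9% and 34.2%. The depth of the acRIP libraries is unknown.

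All 8 ring subunit genes and all 3 HSP90 genes had peaks in both lines. CCT5 had 3 peaks in SW480 and 5 in DLD-1, and DNAJC14 had 5 in DLD-1 and none in SW480, the most of any chaperone gene in DLD-1. HSP90AA1 had 4 in each line, the most in SW480. DNAJB9, DNAJC21, DNAJC25 and HSPB2-C11orf52 had peaks in SW480 alone. DNAJC4, DNAJC6, DNAJC9, DNAJC10, DNAJC13, DNAJC14, HSPA13, HSPA1A, HSPE1 and HSPE1-MOB4 had them in DLD-1 alone, and 36 genes had none in either. These lists include chaperone genes below the Input minimum. Of the 10350 genes that met the minimum, 5294 had a peak in SW480, 5879 in DLD-1 and 4168 in both. Of the 61 chaperone genes, 37, 42 and 34 did. By these counts, which carry no test, peaks in a single line were not more frequent among the 61 genes than among all genes. DNAJB9 had its peak in SW480, where its Input was low. The DNAJC6 peak was the 1 chaperone peak that did not pass the FDR of 0.05. The read-through genes were listed at 0 FPKM. Each of their peaks overlapped a peak listed for GNG10, C11orf52, HSPE1 or MOB4, so the host is uncertain.

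**Figure D5:**
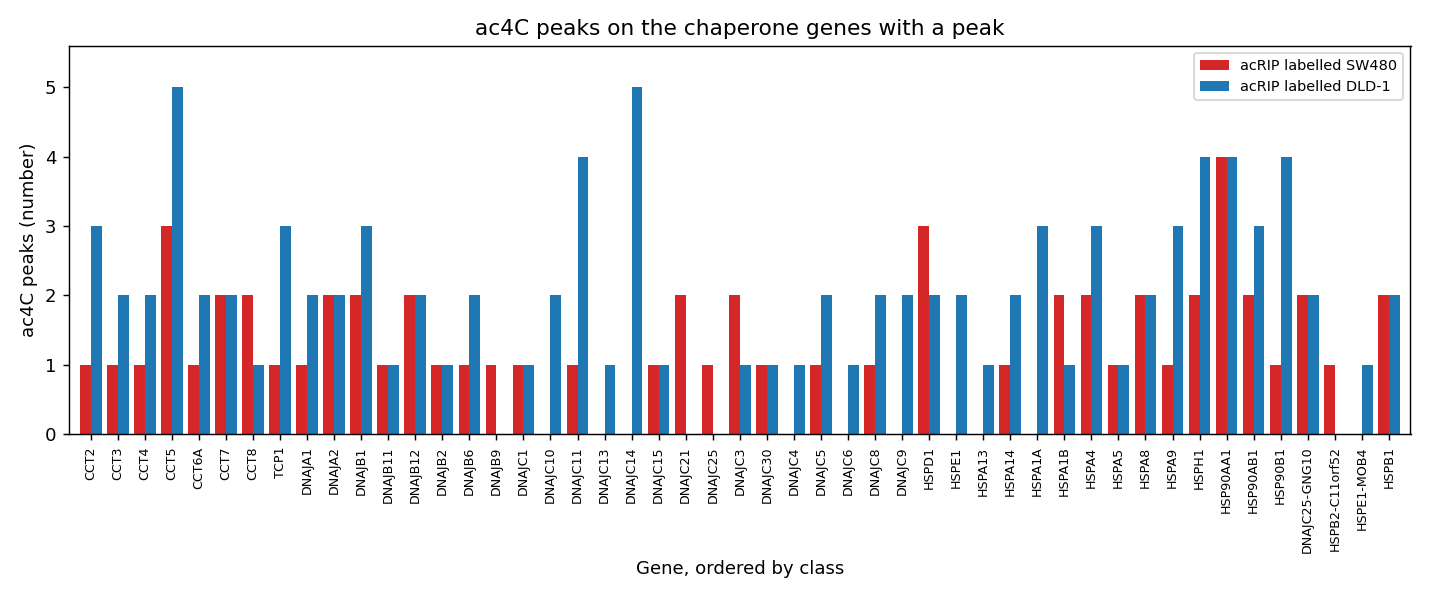
Number of ac4C peaks per gene in the acRIP library of SW480 (red) and DLD-1 (blue) for the 49 chaperone genes with a peak in either line. Of the 35 genes with peaks in both lines, 18 had more in DLD-1, 4 more in SW480 and 13 as many; all protein-coding hosts together had 8924 peaks in SW480 and 13336 in DLD-1.

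Of the 60 SW480 peaks 45 overlapped a DLD-1 peak by at least 1 base on the same strand (75.0%), against 56% of all peaks with a protein-coding host. The 95% Wilson interval was 62.8 to 84.2, for counting error only. It takes peaks as independent, although the 60 peaks lay on 39 genes and 17 of these held 2 or more. The chaperone peaks were also longer in the median, and the part of this in the overlap was not tested. Of the 97 DLD-1 peaks 41 overlapped a SW480 peak (42.3%, interval 32.9 to 52.2), against 36.2%. With a stricter overlap of at least 50% of each peak, 31.7% of the SW480 chaperone peaks were shared (interval 21.3 to 44.2), against 36.2%. In DLD-1 19.6% were (interval 12.9 to 28.6), against 24.1%. The stricter shares lay below those of all peaks, but their intervals included them, as did the DLD-1 interval at 1 base. DNAJB12, DNAJC1, DNAJC5 and HSPA8 had peaks in both lines and none shared. In HSPA8 the highest peak of SW480 lay in the 3'-UTR with a fold of 106 and that of DLD-1 in the coding sequence (CDS) with a fold of 542, the highest fold of any chaperone peak in DLD-1. HSPA5, on the minus strand, had 1 peak in each line, listed in the 3'-UTR (GRCh38). It covered chromosome 9 from 125236255 to 125236911 in SW480, with a fold of 446, and 125236255 to 125236553 in DLD-1, with a fold of 51.3. The first is the highest fold of a chaperone peak in SW480.

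The shared peaks with the highest smaller fold were in HSPA1B (folds of 176 and 149), DNAJA1 (134 and 158), CCT6A (125 and 270.0), CCT7 (161 and 123) and DNAJB11 (275 and 91.2), in SW480 and DLD-1 in turn. The read-through DNAJC25-GNG10 (63.5 and 138), DNAJB1 (323 and 62.1) and HSP90B1 (81.8 and 51.5) came next. CCT6A, on the plus strand, had this peak at chromosome 7 from 56062720 to 56063900 in SW480 and 56062690 to 56063810 in DLD-1, listed in the 3'-UTR. The CCT3 peak of SW480 covered 571 spliced bases of chromosome 1 from 156308998 to 156311082 (minus strand), also listed in the 3'-UTR, with a fold of 412, and the overlapping DLD-1 peak had a fold of 40.1. Folds of the acRIP libraries, whose depth is unknown, are set side by side with no comparison. Sequences of the peaks are not printed, because no genome was used here.

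By place in the transcript, 35 of the 60 SW480 peaks were listed in the 3'-UTR, against 56.3% of all peaks, and 21 in the CDS, against 25.8%. In DLD-1 36 of 97 lay in the 3'-UTR, against 43.2%, and 47 in the CDS, against 40%. The authors' motif site, 12 bases long with 4 Cs at even spacing, was listed in 30 of 60 SW480 peaks, against 56.2%, and in 52 of 97 DLD-1 peaks, against 54.8%. HSPB1 held the most sites, 11 in its CDS peak of DLD-1 and 5 in the 3'-UTR peak of each line. The median peak length was 271 bases in SW480 and 301 in DLD-1, against 210 and 211 over all peaks, and the median fold 25.1 and 17.6, against 19.8 and 14.7.

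Chaperone genes with an ac4C peak had a lower median RIP/Input ratio than those without one in SW480 as labelled. The order was the reverse in DLD-1 as labelled, and in both lines over the other Input. In SW480 the 37 chaperone genes with a peak had a median ratio of 0.33 as labelled and the 24 without one 0.70, and over the other Input 0.38 and 0.27. In DLD-1 the 42 with a peak had 0.17 and the 19 without one -0.11, and over the other Input 0.28 and 0.20. Over all genes that met the Input minimum, the median ratio was higher with a peak in each comparison. As labelled it was 0.21 against 0.14 in SW480 and 0.20 against -0.12 in DLD-1. Over the other Input it was 0.14 against 0.09 and 0.18 against -0.03. The chaperone genes with a peak had higher Inputs, with a median of 47.9 FPKM against 4.90 in SW480 and 32.4 against 7.04 in DLD-1. Over all genes these medians were 14.2 against 6.90 and 13.9 against 6.68. The part of this in the ratios was not tested.

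The wider chaperone system was taken as 40 co-chaperones, prefoldins and heat shock factors, all above the Input minimum. Its median ratio was 0.50 as labelled in SW480 and 0.31 in DLD-1. As labelled 9 were 2-fold above Input in SW480 (among them BAG2, CDC37, FKBP4, FKBP5, HYOU1, PFDN4, TRAP1 and VBP1), against 17.4% of all genes, and 2 below (BAG3 and HSF4), against 9.17%. In DLD-1 6 were above (BAG5, HSCB, PDCL3, PFDN1, STUB1 and TRAP1), against 16.7%, and 2 below (HSF4 and HYOU1), against 12.8%. With the other label's Input 8 were above and 2 below for the RIP library labelled SW480, against 10.1% and 3.93% of all genes. For the RIP library labelled DLD-1 4 were above and 2 below, against 10% and 4.51%. TRAP1, the mitochondrial HSP90, gave RIP 110.5 and Input 25.1 FPKM under the SW480 label, and RIP 72.6 and Input 35.6 FPKM under the DLD-1 label, and was above 2-fold in all 4 pairings. HSF4, best known from the eye lens, gave RIP 2.73 and Input 12.3 FPKM under the SW480 label, and RIP 3.69 and Input 12.2 FPKM under the DLD-1 label, and was below 2-fold in all 4. BAG3, the HSP70 exchange factor of the aggregate pathway, gave RIP 33.5 and Input 107 FPKM under the SW480 label, and RIP 39.3 and Input 70.0 FPKM under the DLD-1 label. HSF1, the main heat shock factor, gave RIP 30.9 and Input 28.5 FPKM under the SW480 label, and RIP 26.7 and Input 28.6 FPKM under the DLD-1 label, close to Input in every pairing. HYOU1, an ER HSP110, gave RIP 148 and Input 50.4 FPKM under the SW480 label, and RIP 63.2 and Input 134 FPKM under the DLD-1 label, the same split of libraries as in HSPA5. Peaks were listed on 33 of the 40 genes in SW480, against 51.1% of all genes, and 31 in DLD-1, against 56.8%.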

How the data were processed

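RNA of SW480 and DLD-1 cells was sequenced by a provider in 6 libraries, 1 per group. The authors deposited FPKM values per gene for the RIP and Input libraries, and a second table of Inputs with no named unit, read as FPKM. The authors' ratio columns were not used. Per the labels, the submitters' processing notes name cutadapt 2.5 and HISAT2 2.1.0, without role, and GRCh38. The counting tool and strandedness are not given in the sources used here. The authors deposited ac4C peaks called per library, with a p-value, an FDR and a fold enrichment of acRIP over Input for each peak, and the caller is not given in the sources used here. A list called on the pooled libraries was not used here. Peak starts count from 0 (25 starts matched gene starts at an offset of -1, and 5 to 9 at the other offsets from -2 to 2), so 1 was added.

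Ratios used a pseudocount of 1 FPKM and a call at 2-fold, among genes with Input of at least 1 FPKM in both lines. Whole reads were solved from the steps between FPKM columns of a gene (at least 28093353, 13683039, 23730687 and 12622785 reads in the RIP and Input labelled SW480 and the RIP and Input labelled DLD-1). As the smallest numbers of reads that fit the values, they are lower limits, and counting errors are upper limits. All 23515 genes with a value in 2 or more columns were solved, within 0.002 of a whole number. This step was tested on simulated data. With no replicates no test was run. Named genes are the 15 with the highest Input, the CCT ring, the 6 highest and 6 lowest with the same sign in both lines, all opposite 2-fold calls, the 6 highest and 6 lowest between the Inputs, the 8 leading shared peaks, and the members with most peaks. Members and lists were chosen with earlier results of these data known. Python 3.11.15, pandas 2.3.3 and numpy 2.4.6 were used.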

Additional observations from a re-analysis of the deposited data

Results flagged for a closer look

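In 7 chaperone genes the RIP library lay at least 2-fold above Input under the SW480 label and at least 2-fold below it under the DLD-1 label. With 1 library per group the difference between the lines was not tested. The log2 ratio of SW480 minus that of DLD-1 was 6.58 in DNAJA4, 4.57 in HSPB8, 4.41 in DNAJC6, 3.15 in DNAJC5G, 2.92 in HSPA5, 2.61 in DNAJB4 and 2.44 in DNAJC18. HSPA5, DNAJB4 and DNAJC18 met the Input minimum in both lines, and the other 4 did not. With that minimum, opposite 2-fold calls in either order were found in 3 of 61 chaperone genes, against 6.5% of all genes. Such calls were therefore not more frequent among the chaperone genes. The DNAJA4 value rests on 1 read (RIP, DLD-1 label), and HSPB8 and DNAJC5G were listed at 0 in the Input labelled SW480. On the log2 scale, in all 7 genes the levels of the RIP library labelled SW480 were nearer to the Input labelled DLD-1 than to the Input of its own label. The 7 genes were picked by their ratios in these same libraries, so this order cannot serve as support for either pairing.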

How the results depend on the processing

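The 4 fold comparisons between libraries gave counts that moved with the setting, and the host counts of ac4C peaks stayed within 1.5 times under every alternative run. Of the recomputed counts and shares, 46 stayed within 1.5 times or within their interval and 30 did not. The cause was not tested, except that a stricter filter leaves fewer genes. The counts of chaperone genes that follow have no share of all genes at the same setting beside them. They show how far a count moves, and not whether the chaperone genes differ from other genes. With a pseudocount of 5, 8 genes were above Input under the SW480 label, 3 below under the DLD-1 label, 2 lower between Inputs, and 1 higher and 1 lower between RIP libraries; with 0.1, 10 were higher between RIP libraries. With an Input of at least 5 FPKM, 10 were above under the SW480 label, 2 below under the DLD-1 label, 2 lower between Inputs and 1 higher between RIP libraries, and with no filter 14 were below under the DLD-1 label. Centring left 9 above under the SW480 label. At 1.5-fold, the counts above and below were 28 and 6 under the SW480 label, 18 and 11 under the DLD-1 label, 7 and 17 between Inputs, and 14 and 7 between RIP libraries. Over the Input of the other label 3 were above and 0 below for the RIP library labelled SW480, and 1 below for that labelled DLD-1. Over the other label's Input from the acRIP data, 8 were above under the SW480 label and 1 below under the DLD-1 label. The acRIP-table Inputs gave 2 genes higher in SW480. With an Input of at least 1 FPKM in either line, an alternative chosen after seeing the data, 14 genes were lower between Inputs and 10 higher between RIP libraries. Centring of the comparison of both RIP libraries with both Inputs was also chosen after seeing the data. With an overlap of at least 50% of each peak, 31.7% of SW480 and 19.6% of DLD-1 peaks were shared.

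Of the 82 RIP/Input ratios of 41 named genes, the sign turned in 22 over the other label's Input and in 22 over that from the acRIP data, in 8 over the acRIP-table Input of the same label, in 4 after centring and in 0 with other pseudocounts. Ratios past 2-fold as labelled turned only in the first and second of these settings. Among them, for the RIP library labelled SW480 the log2 ratio over the other label's Input was -0.17 in DNAJA4, -0.98 in DNAJC5G, -0.0058 in DNAJC6 and -0.46 in HSPB8. With the acRIP table's Input it was -0.23 in DNAJB4, -1.29 in DNAJC5G and -0.40 in HSPA5. For the RIP library labelled DLD-1 it was 0.17 in DNAJB4, 0.077 in DNAJC18, 0.16 in DNAJC5G, 0.21 in DNAJC6 and 0.21 in HSPA5. With the acRIP table's Input it was 0.018 in DNAJA4, 0.15 in DNAJB4, 0.27 in DNAJC18, 0.16 in DNAJC5G and 0.25 in DNAJC6. No paired analysis was possible because each group held 1 library. Depth limits the low genes: the counting standard error of the ratio had a median of 0.06 and a maximum of 0.40 (HSPA2) over the 61 genes in SW480.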
